A study of Mus musculus with 43 samples.

Results

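Neutrophils and dendritic cells sorted from the spleens of mice that had received no interferon were compared over all measured genes. The comparison used 5 of the 43 arrays of a study on the response of immune cells to interferon alpha, namely the 2 neutrophil and 3 dendritic cell arrays whose titles mark them as baseline. The mice were male C57BL/6 animals aged 6 weeks, with no mutant allele or transgene named in the labels, and the labels give no treatment, vehicle included, to the mice of the baseline arrays. Neutrophils were sorted as Ly6G+ cells and dendritic cells as CD11c+ FLT3+ cells, and their RNA was hybridised to Affymetrix Mouse Gene 1.0 ST arrays. Set beside them were 2 neutrophil and 2 dendritic cell arrays from mice of the same kind taken 2 h after 10000 U of interferon alpha under the skin, and 21 baseline arrays of the NKT, NK, gamma-delta T, regulatory T, CD8+ T and CD4+ T cells and macrophages of the study.

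Neutrophils are short-lived phagocytes that leave the bone marrow loaded with antimicrobial proteins in granules, which are filled in sequence as the cells mature: azurophil granules first, then specific granules, then gelatinase granules. Dendritic cells grow under the cytokine receptor FLT3, take up antigen and present its peptides on MHC class II molecules to T cells. The spleen holds conventional dendritic cells of type 1 (cDC1), which present to CD8+ T cells, of type 2 (cDC2), which present to CD4+ T cells, and plasmacytoid dendritic cells, a source of type I interferon.

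Levels are given as log2 of the deposited intensity, 1 value per gene and array, and a difference is the neutrophil mean minus the dendritic cell mean, so that 1 unit is a 2-fold difference. A gene was called when its limma p, adjusted over 19752 genes by the Benjamini-Hochberg method, was below 0.05 and its difference was at least 1 in size. All adjusted p-values beside single genes are from that limma fit, which took its spread from 26 baseline arrays of 9 cell types. Nothing in the labels says that the arrays came from separate animals, so p-values measure the spread between arrays within these 9 cell types. The arrays of each type were alike, with correlations over genes of 0.991 between the neutrophil arrays and 0.990 to 0.995 among the dendritic cell arrays, against 0.860 to 0.876 between the types.

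Marker genes matched the labelled cell types. S100a8, a calcium-binding protein abundant in neutrophils, had 13.47 and 13.46 on the neutrophil arrays, against 8.0, 7.75 and 7.10 on the dendritic cell arrays. Flt3, the receptor used in the dendritic cell gate, had 6.38 and 6.33 on the neutrophil arrays, against 11.46, 11.50 and 11.64 on the dendritic cell arrays. All 15 neutrophil markers were called higher in neutrophils, and 14 of 15 dendritic cell markers were called lower. Ly6g, Itgax (which encodes CD11c) and Flt3 encode proteins of the sorting gates, so their differences describe the sort. Genes of B cells, which neither gate selects, were present on both neutrophil arrays, at a summed intensity of 9624 and 5911 over 18 markers, against 6717, 5643 and 4905 on the dendritic cell arrays. In bulk RNA, fewer cells of a type and less RNA per cell cannot be told apart, and this holds for every marker list here.

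Of 19752 genes, 1104 (5.59%) were called higher and 2013 (10.2%) lower in neutrophils than in dendritic cells, together 15.8%. Differences of at least 4-fold were seen for 365 called genes in the first direction and 542 in the second, and differences of at least 16-fold for 63 and 56. The arrays of the cell types did not overlap, with neutrophils higher, for 8375 genes (42.4%), and with neutrophils lower for 5408 (27.4%), called or not. The median difference over all genes was 0.14. The plot of differences against mean level shows that the called genes spread over most of the measured range. Arrays of the same type differed by at least 1 for few genes, namely 71 genes (0.359%) between the neutrophil arrays and 13 to 59 genes between pairs of dendritic cell arrays.

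**Figure D1:**
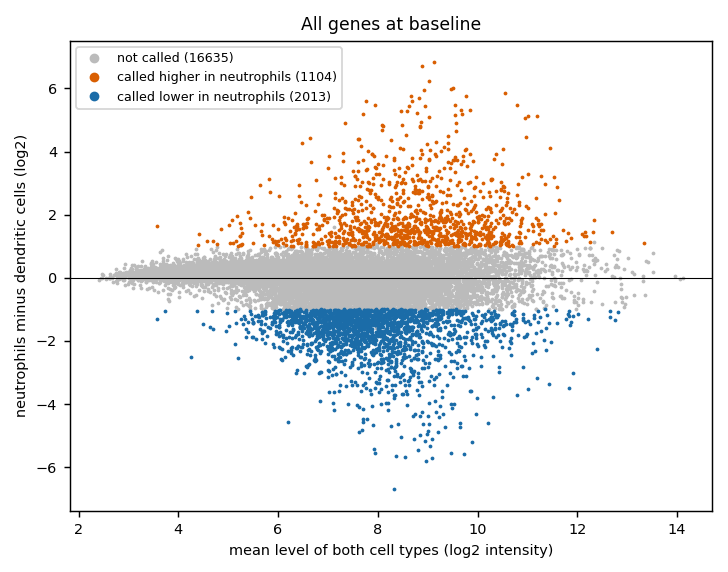
Difference between neutrophils (n = 2 arrays) and dendritic cells (n = 3 arrays) at baseline, as neutrophils minus dendritic cells on the log2 scale (y axis), against the mean level of both (x axis, log2 intensity), with 1 point per gene. Orange points mark the 1104 genes called higher in neutrophils and blue points the 2013 called lower.

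The largest excess in neutrophils was that of Ly6g, a surface protein anchored in the neutrophil membrane and the target of the sorting antibody. It had 12.21 and 12.86 on the neutrophil arrays, against 5.84, 5.33 and 5.94 on the dendritic cell arrays. The difference was 6.84 (SE 0.21, adjusted p = 4.47e-18), and the groups lay far apart. The level in dendritic cells was close to that of the 7 other types, whose means lay between 5.06 and 5.57, so the size of such differences is limited by the low end of the array's range. Retnlg, a secreted protein of the resistin family, had 12.41 and 12.62 on the neutrophil arrays, against 6.36, 6.61 and 6.5 on the dendritic cell arrays, a difference of 6.02 (SE 0.17). Il1f9, which encodes the cytokine IL-36 gamma, differed by 5.95 (SE 0.21), and Arg2, the mitochondrial arginase, by 5.69 (SE 0.16). Mirt2, a long noncoding RNA, had 11.53 and 11.55 on the neutrophil arrays, against 5.83, 5.80 and 5.71 on the dendritic cell arrays. The lectin receptors Clec4d and Clec4e, which bind mycobacterial glycolipid, differed by 5.6 (SE 0.20) and 5.49 (SE 0.29). The other leading genes were Ly6a2 at 5.77 and Mmp8, Ltf, Chil1, S100a8, Chil3, Camp and S100a9, between 5.47 and 6.71.

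The largest deficit in neutrophils was that of Klri1, a lectin-like receptor of the killer cell receptor family. It had 5.2 and 4.74 on the neutrophil arrays, against 11.89, 11.53 and 11.58 on the dendritic cell arrays. Its difference was -6.70 (SE 0.36, adjusted p = 1.39e-13), with neutrophils at the low end of the range. Adam23, a membrane protein of the ADAM family, had 6.10 and 6.04 on the neutrophil arrays, against 11.98, 11.86 and 11.74 on the dendritic cell arrays, a difference of -5.79 (SE 0.21). Havcr2, which encodes the inhibitory receptor TIM-3, differed by -5.63 (SE 0.24), and Dnase1l3, a secreted nuclease that digests chromatin, by -5.59 (SE 0.44). Xcr1, the chemokine receptor that marks cDC1, had 6.03 and 5.88 on the neutrophil arrays, against 10.57, 10.91 and 11.50 on the dendritic cell arrays. The neutrophil arrays were low for each of the 15 leading genes of this direction, between 4.74 and 7.29, while the dendritic cell arrays lay between 10.57 and 12.71. The remaining ones were Anpep, Ifi205, Cd209a, Ms4a6c, Klrd1, Slamf7, Cd7, Flt3, Cxcl9 and Il6st, between -5.71 and -5.10.

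**Figure D2:**
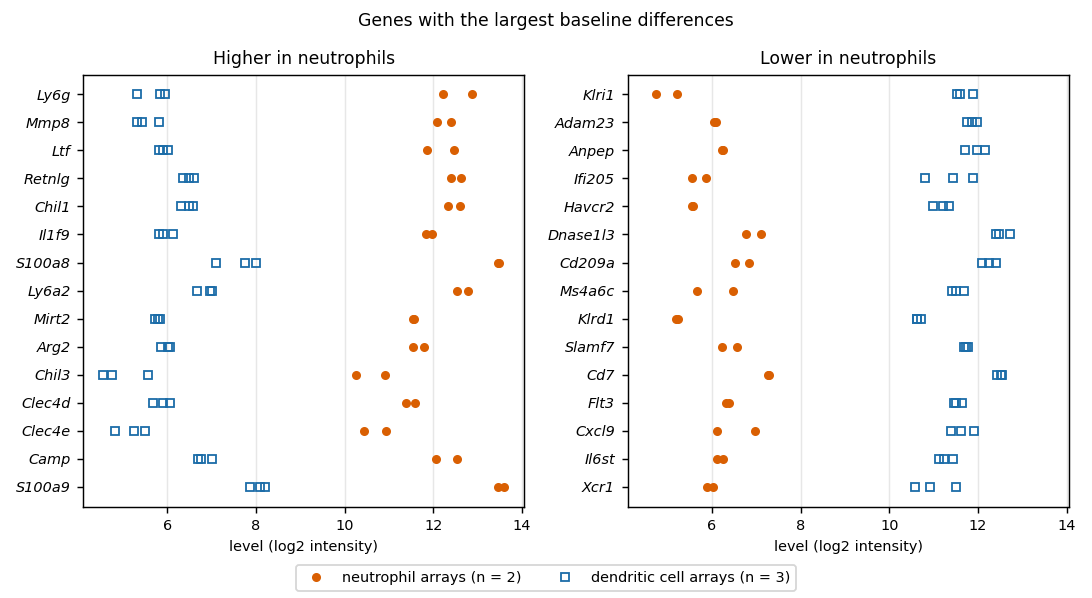
Levels (x axis, log2 intensity) of the 15 genes with the largest excess (left) and the 15 with the largest deficit (right) in neutrophils. Filled circles are the 2 neutrophil arrays and open squares the 3 dendritic cell arrays. Genes whose groups overlap were left out when these 30 genes were picked.

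Granule genes separated by granule class. Of 18 measured secondary granule genes, 14 were called higher in neutrophils and none lower, with a median difference of 3.19 against 0.14 over all genes. Of 16 genes listed under gelatinase granules and secretory vesicles, 10 were called higher and none lower, with a median of 3.41. That list also holds the mitochondrial arginase Arg2 and the histone-modifying enzyme Padi4, so it is wider than the granule class. Of 11 azurophil granule genes, none was called higher and 1 was called lower, with a median of 0.29. Over all genes 5.59% were called higher and 10.2% lower, so the azurophil counts are near those shares. Mpo, the myeloperoxidase gene of azurophil granules, had 6.70 and 6.79 on the neutrophil arrays, against 6.67, 6.77 and 6.49 on the dendritic cell arrays, and Elane, the neutrophil elastase gene, had 6.37 and 6.59 on the neutrophil arrays, against 6.19, 6.35 and 5.93 on the dendritic cell arrays. The arrays of both cell types overlapped for Mpo, and neither gene passed the test (adjusted p = 0.662 and 0.2). The gene called lower was Ctsc, whose protease activates the azurophil serine proteases, at 8.07 and 7.30 on the neutrophil arrays, against 11.00, 10.64 and 10.61 on the dendritic cell arrays (difference -3.06, SE 0.24).

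Among secondary granule genes, Mmp8, the neutrophil collagenase, had 12.08 and 12.40 on the neutrophil arrays, against 5.82, 5.32 and 5.44 on the dendritic cell arrays, a difference of 6.71 (SE 0.18, adjusted p = 7.46e-19). Ltf, the iron-binding protein lactoferrin, had 11.85 and 12.46 on the neutrophil arrays, against 6.01, 5.81 and 5.91 on the dendritic cell arrays, a difference of 6.25 (SE 0.21). Lcn2, which binds bacterial siderophores, had 13.68 and 13.83 on the neutrophil arrays, against 8.81, 9.11 and 7.96 on the dendritic cell arrays, a difference of 5.13 (SE 0.34). All 3 were high on both neutrophil arrays. On the dendritic cell arrays Lcn2 varied more than the others, and so did Ngp, the neutrophilic granule protein, at 13.58 and 13.59 on the neutrophil arrays, against 8.45, 9.20 and 7.71 on the dendritic cell arrays. Camp, the precursor of the antimicrobial peptide cathelicidin, differed by 5.48, and the chitinase-like genes Chil1 and Chil3 by 5.99 and 5.62. The smallest called differences were those of lysozyme Lyz2, at 1.44 (SE 0.42, adjusted p = 0.00979), and the acid glycoprotein gene Orm2, at 1.07. In the gelatinase list, Padi4, which citrullinates histones in extracellular traps, differed by 4.68, and Mmp9, gelatinase B, by 4.47. Itgam, the CD11b integrin chain, differed by 3.13. Among 9 calgranulins and stefins, 4 were called higher, with S100a9 at 5.47 and S100a6 at 3.04, and 2 lower, S100a4 at -2.41 and S100a10 at -1.14. Without neutrophil array 2, Lyz2 (1.36), Orm2 (0.96) and S100a10 (-0.60) were not called.

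The promoters of 3 secondary granule genes are shown because C/EBP factors, the basic leucine zipper proteins of granule gene transcription, bind sequences of the form TTGCNNAA, here the letters searched on both strands. Each sequence is the 250 bases before the start of the gene in RefSeq (build GRCm38.p6), read along the gene's strand, with the match in capitals. The promoters are Ltf at chr9:111019042-111019291 (plus strand), Mmp8 at chr9:7558179-7558428 (plus strand) and Lcn2 at chr2:32387740-32387989 (minus strand).
Ltf: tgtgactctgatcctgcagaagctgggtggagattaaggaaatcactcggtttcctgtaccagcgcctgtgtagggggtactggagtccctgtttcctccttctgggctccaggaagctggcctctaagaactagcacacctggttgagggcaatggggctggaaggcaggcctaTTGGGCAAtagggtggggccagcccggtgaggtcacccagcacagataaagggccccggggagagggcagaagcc
Mmp8: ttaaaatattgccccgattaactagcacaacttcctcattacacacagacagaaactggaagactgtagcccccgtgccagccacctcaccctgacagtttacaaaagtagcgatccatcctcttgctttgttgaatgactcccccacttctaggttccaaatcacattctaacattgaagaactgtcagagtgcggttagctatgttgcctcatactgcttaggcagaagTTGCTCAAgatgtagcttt
Lcn2: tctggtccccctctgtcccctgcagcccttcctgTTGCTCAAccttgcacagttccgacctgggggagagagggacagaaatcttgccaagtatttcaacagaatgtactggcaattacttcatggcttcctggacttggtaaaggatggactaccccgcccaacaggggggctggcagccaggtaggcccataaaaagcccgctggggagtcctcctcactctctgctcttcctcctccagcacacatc
The match began 75 bases before the start of Ltf, on the opposite strand, 19 bases before that of Mmp8 and 216 bases before that of Lcn2. Such a match occurred in 6 of 16 secondary granule genes with a promoter in the table, and the 3 shown are among these 6. It also occurred in 5 of 11 genes of the gelatinase list, against 10.1% of all measured genes with a promoter there. A match is a run of letters and was not tested as a binding site.

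Receptors that guide neutrophils were mostly higher where they were called. Of 24 genes of chemoattractant and cytokine reception, a list that includes the interleukin-1 antagonist Il1rn, 14 were called higher and 3 lower (median 1.73). Over all genes 5.59% were called higher and 10.2% lower. All 14 were also called above each of the 8 other cell types at baseline, against 2.21% of all genes and 39.5% of all those called higher. C5ar1, the receptor for complement fragment C5a, had 11.37 and 11.34 on the neutrophil arrays, against 5.95, 5.78 and 5.98 on the dendritic cell arrays, a difference of 5.45 (SE 0.19). Cxcr2, the main receptor for neutrophil-attracting chemokines, had 12.54 and 12.49 on the neutrophil arrays, against 7.53, 7.36 and 6.66 on the dendritic cell arrays, a difference of 5.33 (SE 0.25). Csf3r, the receptor for the granulocyte growth factor G-CSF, differed by 5.08, Ccr1 by 5.28, and the activating receptors Trem1 and Trem3 by 4.83 and 4.66. Cxcr4, which retains neutrophils in bone marrow, differed by 2.91 (SE 0.19). The 3 receptors called lower were Ifngr1 at -1.17, Lifr at -1.29 and Csf2rb2 at -1.31, the last of which was not called without neutrophil array 1 (-1.08).

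Fc receptors were called in 1 direction, and lectins and adhesion genes in both. Of 14 Fc receptor and related genes, 6 were called higher and none lower, led by Fcgr3 at 3.69 (SE 0.24) and Fcgr4 at 3.40 (SE 0.49), 2 receptors that trigger phagocytosis through IgG. Among the 6, Fcer2a, which encodes the IgE receptor CD23 of B cells, had 9.06 and 8.03 on the neutrophil arrays, against 7.02, 6.74 and 6.10 on the dendritic cell arrays, and it is counted among the B cell markers as well. It was not called without neutrophil array 1 (1.41) or without dendritic cell array 3 (1.67). Of 31 C-type lectins and Siglecs, 11 were called higher and 11 lower. Higher were Clec5a at 4.82, Cd33 at 3.21 and Clec7a, the beta-glucan receptor dectin-1, at 2.77. Lower were Cd209a at -5.56, Cd209d at -4.89 and Clec9a, the cDC1 receptor for dead cells, at -3.98. Of 20 adhesion genes, 7 were called in each direction, with Cd44 at 1.90 and Itgal at 1.84 against Esam at -1.96 and Itgb1 at -1.94.

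Sensors of microbial products also split. Of 21 genes of Toll-like receptor signalling, 8 were called higher and 5 lower (median 0.69). Higher were genes for sensors of the cell surface, with Tlr4, the lipopolysaccharide receptor, at 8.24 and 8.54 on the neutrophil arrays, against 6.13, 5.68 and 5.79 on the dendritic cell arrays, its partner Cd14 at 1.42, and Tlr6 and Tlr2 at 1.29 and 1.23. Tlr8, an endosomal sensor, was higher as well, at 1.93, and so was Irak3, an inhibitor of the pathway, at 3.39 (SE 0.21). Lower were Tlr3, the receptor for double-stranded RNA, at -4.05 (SE 0.22), Tlr1 at -3.23, Tlr9 at -2.84, Tlr7 at -1.81 and the adaptor Ticam2 at -1.70. Tlr1, which like Tlr6 pairs with Tlr2, differed in the direction opposite to both, and Tlr2 was not called without neutrophil array 2 (0.78).

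Effector genes differed by pathway. Of 8 NADPH oxidase genes, 3 were called higher, the cytosolic subunits Ncf1 at 1.91 and Ncf4 at 1.22 and the GTPase Rac2 at 1.45, while the membrane subunit Cybb had 11.89 and 12.43 on the neutrophil arrays, against 11.94, 11.68 and 11.83 on the dendritic cell arrays, with overlapping arrays. Of 13 genes for leukotriene and prostaglandin enzymes, 4 were called higher and 2 lower. Alox5, which makes leukotrienes, had 11.95 and 12.09 on the neutrophil arrays, against 7.33, 7.05 and 6.93 on the dendritic cell arrays, a difference of 4.91 (SE 0.23), and Ptgs2, the inducible cyclooxygenase, differed by 3.59 (SE 0.26). Hpgd, which degrades prostaglandins, was lower at -3.34, and Hpgds, a prostaglandin D synthase, at -2.25. Of 17 inflammasome and interleukin-1 genes, 6 were called higher and 4 lower. Il1b had 12.84 and 12.93 on the neutrophil arrays, against 9.65, 9.65 and 9.68 on the dendritic cell arrays, and Nlrp3 differed by 2.30, as did the decoy receptor Il1r2 by 3.72 and the receptor antagonist Il1rn by 3.42. Lower were Nlrc4 at -2.38, Il18 at -1.54, Naip5 at -1.19 and Pycard at -1.01. With quantile normalisation 2 of these 4 were called. Naip5 was not called without neutrophil array 1 (-0.93), nor was Pycard without neutrophil array 2 (-0.89) or dendritic cell array 2 (-0.91).

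Of 29 cytokine genes, 9 were called higher and 1, Il18, lower. Csf1, the macrophage growth factor, differed by 3.80 (SE 0.22), Osm by 2.96, the B cell survival factor Tnfsf13b by 2.82 and Il15 by 2.50. Hdc, the histamine-forming enzyme listed with them, differed by 4.25. Chemokines were called higher for 3 of 28 genes, Ccl6 at 4.08, Cxcl2 at 3.86 and Ccl3 at 1.83, and lower for 4, Cxcl9 at -5.10, Ccl5 at -3.70, Cxcl16 at -3.38 and Ccl22 at -1.45. These chemokine counts lie near the shares of all genes, 5.59% higher and 10.2% lower. The chemokine median was 0.17, against 0.14 over all genes. Of 23 chemokine receptors, 6 were called higher and 8 lower. The lower ones held Ccr7, which directs dendritic cells to lymph nodes, at 8.55 and 8.0 on the neutrophil arrays, against 11.19, 10.53 and 11.51 on the dendritic cell arrays, and Gpr183, an oxysterol receptor that positions cells in the spleen, at -3.12. Cxcr5, a receptor of B cells, was among the higher ones at 6.75 and 5.98 on the neutrophil arrays, against 5.11, 5.06 and 4.84 on the dendritic cell arrays. Without neutrophil array 1 Cxcr5 was not called (0.98), and without neutrophil array 2 Ccl3 was not (1.60). Of 26 receptors for cytokines that act on dendritic cells, 4 were called higher and 9 lower, with Kit at -4.33 and Il12rb2 at -4.01 beside Flt3 and Il6st.

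Transcription factors divided by lineage. Of 22 factors linked to neutrophils, 13 were called higher and none lower (median 1.37). Cebpe, which drives secondary granule genes, had 8.91 and 9.59 on the neutrophil arrays, against 6.81, 6.58 and 6.66 on the dendritic cell arrays, a difference of 2.57 (SE 0.18). Cebpd and Cebpb differed by 2.90 and 2.93, Fosl2 by 3.65, Rara by 2.86 and Mxd1 by 2.55, whereas Cebpa did not pass the test (difference 0.31, adjusted p = 0.437), nor did Spi1, the factor PU.1 of both lineages (0.72, adjusted p = 0.275). Of 24 factors of dendritic cells, 17 were called lower and 1, Nfil3, higher (median -1.5). Irf8, required for cDC1, had 8.4 and 7.76 on the neutrophil arrays, against 11.41, 11.59 and 11.96 on the dendritic cell arrays, a difference of -3.58 (SE 0.32). Ciita, the master regulator of MHC class II genes, had 7.55 and 7.29 on the neutrophil arrays, against 11.62, 11.56 and 11.44 on the dendritic cell arrays, a difference of -4.12 (SE 0.31). Zfp366 differed by -3.29, Bcl11a by -2.71, Irf4 by -2.55, Zbtb46 by -1.85 and Batf3 by -1.36.

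Genes of the dendritic cell lineage were lower in neutrophils for both conventional types. Of 32 core genes of conventional dendritic cells, 25 were called lower and 2 higher (median -2.71), and the 2 higher were Fgl2 at 2.40 and Jaml at 1.52. Dpp4 differed by -4.84 (SE 0.32), Traf1 by -4.68 and Slamf8 by -3.63. Of 22 cDC1 genes, 19 were called lower and none higher (median -2.60), and of 26 cDC2 genes, 15 were lower and 2 higher (median -1.80). Clec4a4, the cDC2 lectin DCIR2, had 5.31 and 5.6 on the neutrophil arrays, against 10.18, 9.88 and 9.76 on the dendritic cell arrays. Of 18 genes of plasmacytoid dendritic cells, 5 were called lower and none higher, among them Siglech at -2.13 and Pld4 at -4.74. Cst3, a protease inhibitor often used as a dendritic cell marker, had 13.12 and 13.06 on the neutrophil arrays, against 13.70, 13.55 and 13.64 on the dendritic cell arrays and did not pass the test (adjusted p = 0.144).

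The dendritic cell arrays differed among themselves in cDC1 genes. All 22 cDC1 genes were higher on dendritic cell array 3 than on arrays 1 and 2, by a median of 0.64, while 33.8% of all genes were. Among cDC2 genes 4 of 26 were higher and 14 lower on array 3, and 42.8% of all genes were lower. Rab7b, a cDC1 gene, had 8.99, 9.50 and 10.59 on dendritic cell arrays 1, 2 and 3, and Cd8a had 9.73, 10.19 and 10.59, against 10.54, 10.23 and 9.80 for Cd4 and 11.03, 11.00 and 10.34 for Dtx1, both cDC2 genes. The preparation of array 3 is labelled with a digestion and that of the other 4 baseline arrays with a stain, and the part of this wording in the difference was not tested. With array 3 left out, so that all arrays share the wording, 18 of 22 cDC1 genes were called lower.

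**Figure D3:**
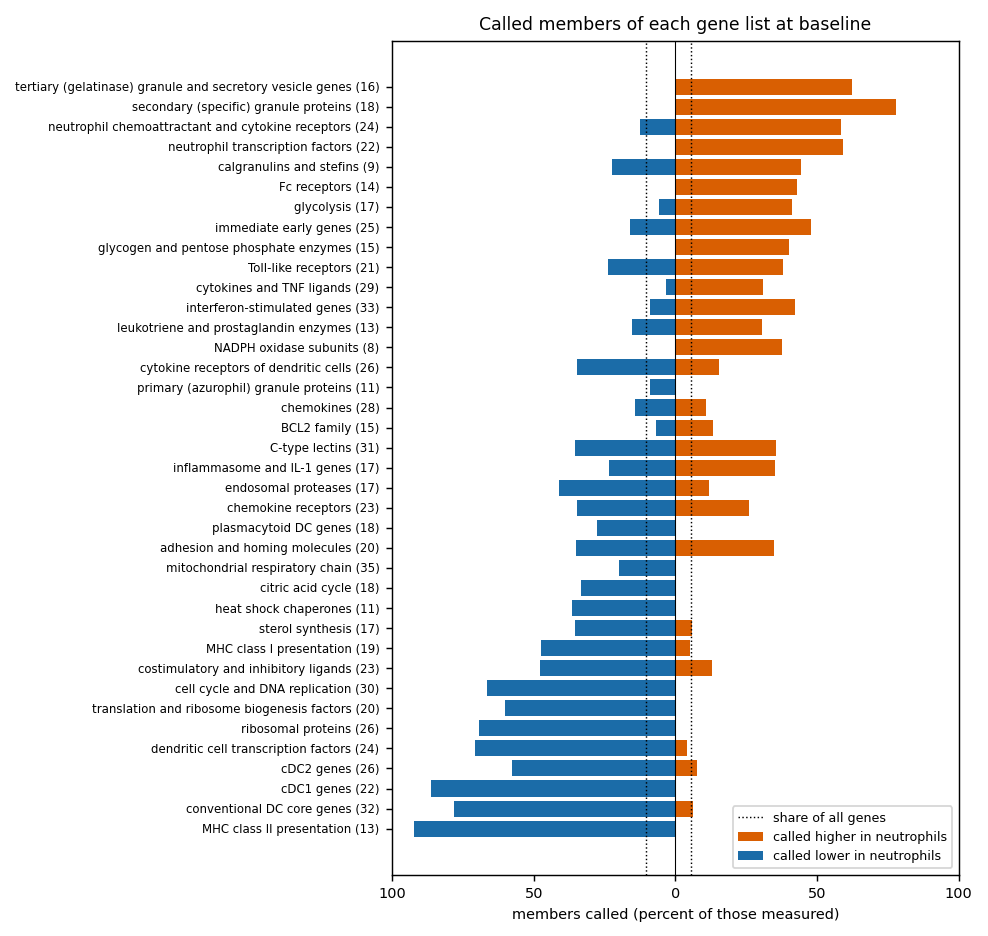
Share of measured members of each gene list (number in brackets) that were called higher (orange, right of 0) or lower (blue, left of 0) in neutrophils than in dendritic cells at baseline, in percent. The dotted lines mark the share of all genes, 5.59% higher and 10.2% lower, and MHC class II genes hold the largest share called lower among the lists drawn, 12 of 13.

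Genes of MHC class II presentation were lower in neutrophils. Of 13 genes of MHC class II presentation, 12 were called lower and none higher, with a median difference of -3.37. H2-Aa, a class II chain, had 10.87 and 9.96 on the neutrophil arrays, against 13.40, 13.43 and 13.46 on the dendritic cell arrays, a difference of -3.02 (SE 0.76, adjusted p = 0.00319). Such an SE takes in the spread within all 9 cell types. The summed intensity of class II genes ran from 5120 to 25073 over the gamma-delta T cell arrays and from 5781 to 18647 over the NKT arrays. H2-Eb1 had 10.07 and 9.42 on the neutrophil arrays, against 13.15, 13.09 and 13.12 on the dendritic cell arrays, a difference of -3.37 (SE 0.55). Cd74, the invariant chain, differed by -2.26, H2-DMa, which loads peptides, by -3.78, and the lysosomal reductase Ifi30 by -3.54. The exception was Marchf1, a ligase that removes class II from the surface, at 0.10 (adjusted p = 0.734). B cells also express class II genes, and 12 of 13 were higher on neutrophil array 1 than on array 2, as were 18 of 18 B cell markers. Without neutrophil array 2 the number called lower was 10, the calls of H2-Aa (-2.56) and Cd74 (-1.81) being lost, and without array 1 it was 12.

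The promoters of 2 class II genes are shown because the Y box bound by the factor NF-Y is a defining element of class II promoters, here searched as CTGATTGG on both strands. They are H2-Aa at chr17:34287824-34288073 (minus strand) and H2-Eb1 at chr17:34305617-34305866 (plus strand) in the same build and layout, with the match in capitals.
H2-Aa: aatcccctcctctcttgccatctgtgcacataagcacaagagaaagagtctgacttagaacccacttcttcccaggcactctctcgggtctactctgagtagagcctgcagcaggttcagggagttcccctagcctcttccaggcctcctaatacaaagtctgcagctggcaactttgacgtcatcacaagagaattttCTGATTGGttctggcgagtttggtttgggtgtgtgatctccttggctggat
H2-Eb1: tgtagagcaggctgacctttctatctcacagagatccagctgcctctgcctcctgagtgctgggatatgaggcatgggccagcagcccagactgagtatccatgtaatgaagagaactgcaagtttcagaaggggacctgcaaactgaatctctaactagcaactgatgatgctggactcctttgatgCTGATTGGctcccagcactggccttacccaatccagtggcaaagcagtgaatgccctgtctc
The match began 51 bases before the start of H2-Aa and 62 bases before that of H2-Eb1. These letters occurred in 4 of 10 class II genes with a promoter in the table (H2-Aa, H2-Eb1, H2-Eb2 and H2-Oa), in none of 16 secondary granule genes and 11 genes of the gelatinase list, and in 5.21% of all measured genes with one. TTGCNNAA occurred in 2 of the 10 class II genes.

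Class I and the enzymes that feed both pathways showed smaller or mixed differences. Of 19 genes of MHC class I presentation, 9 were called lower and 1 higher (median -0.98). H2-M3, a nonclassical class I gene, differed by -2.83, Cd1d1, which presents lipids, by -2.08 and the peptide-trimming enzyme Erap1 by -1.71, while B2m, the shared light chain, had 13.24 and 13.29 on the neutrophil arrays, against 13.36, 13.34 and 13.36 on the dendritic cell arrays. H2-T24 was higher, at 1.94 (SE 0.23). Of 17 endosomal protease genes, 7 were called lower, with Ctss, which degrades the invariant chain, at -2.86 and Ctsh at -2.17. Ctse and Ctsd were called higher, at 3.09 and 2.75. Of 23 costimulatory and inhibitory ligands, 11 were called lower and 3 higher. Cd86, a ligand of CD28, differed by -2.45 (SE 0.26), Cd83 by -3.22 and Cd40 by -2.18, whereas Cd80 had 10.48 and 10.72 on the neutrophil arrays, against 10.79, 10.60 and 10.84 on the dendritic cell arrays and did not pass the test (adjusted p = 0.767). Higher were Vsir at 2.04, Lgals9 at 1.94 and Cd24a at 1.70.

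Genes of B cells ran against the lineage of the sorted neutrophils. Of 18 B cell markers, 6 were called higher in neutrophils than in dendritic cells (against 5.59% of all genes), 3 were called lower and the median difference was 0.64. Fcmr, the IgM receptor, had 10.63 and 9.92 on the neutrophil arrays, against 7.96, 7.55 and 7.04 on the dendritic cell arrays, a difference of 2.75 (SE 0.48, adjusted p = 5.68e-05). Cd79a, a signalling chain of the B cell receptor, had 9.87 and 9.0 on the neutrophil arrays, against 7.70, 7.35 and 6.49 on the dendritic cell arrays, a difference of 2.26 (SE 0.49, adjusted p = 0.000707). Pax5, the factor that commits cells to the B lineage, had 8.58 and 7.82 on the neutrophil arrays, against 6.91, 6.65 and 6.68 on the dendritic cell arrays, a difference of 1.46 (SE 0.33). Ebf1 and Pou2af1 differed by 1.57 and 1.16, and Fcer2a by 1.93. Lower were Cd22, Cd72 and Spib, at -1.39, -1.34 and -1.59, 3 genes that dendritic cells also express. Spib was not called with quantile normalisation (-1.37), without neutrophil array 2 (-1.19) or without dendritic cell array 1 (-1.40). Ms4a1, which encodes CD20, had 9.76 and 8.84 on the neutrophil arrays, against 9.44, 8.99 and 8.82 on the dendritic cell arrays, with overlapping arrays.

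The B cell genes moved together between arrays. All 18 were higher on neutrophil array 1 than on array 2, by a median of 0.77, while 8930 of 19752 genes were (median -0.02). Without neutrophil array 1, 2 of the 18 (Fcmr and Cd79a) were called higher and 3 lower, and without neutrophil array 2, 8 were called higher and none lower. After interferon the summed intensity was 2095 and 1962 on the neutrophil arrays, against 4418 and 4742 on the dendritic cell arrays, and 16 of 18 markers were lower on both interferon neutrophil arrays than on both baseline ones. The summed intensity on the other baseline arrays was 5272 to 23904 in gamma-delta T cells and 1721 to 3496 in the 6 remaining types. Class II genes were also lower after interferon, with a sum of 4426 and 4975 on the interferon neutrophil arrays, against 10985 and 6961 on the baseline ones. On the dendritic cell arrays that sum was 62916 to 63088 after interferon and 71463 to 74114 at baseline. The part of B cell RNA in the class II levels of neutrophils was not tested.

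**Figure D4:**
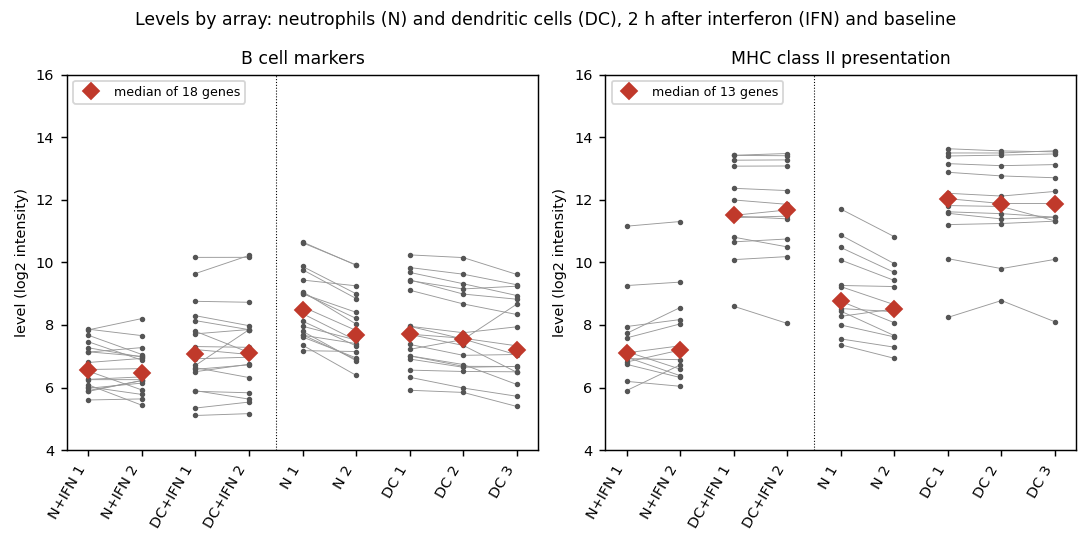
Levels (y axis, log2 intensity) of 18 B cell markers (left panel) and 13 genes of MHC class II presentation (right panel) on each array of neutrophils (N) and dendritic cells (DC), 2 h after interferon (left of the dotted line) and at baseline (right). Grey lines join the same gene between arrays of one group and red diamonds are medians, which for B cell markers were 6.55 and 6.47 on the interferon neutrophil arrays and 8.47 and 7.67 on the baseline ones.

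Markers of further cell types were mostly not called or were lower in neutrophils. Over all genes 5.59% were called higher and 10.2% lower, so 1 call among 11, 13 or 14 markers is near those shares. Of 13 T cell markers, 1 was called higher (Cd3g at 1.68) and 1 lower (Cd5 at -1.21), and of 14 basophil, mast cell and eosinophil markers 1 was higher (Siglecf at 1.49). Cd3g was too dim for the alternative fit that left out dim genes, and so were Cxcr5, Ebf1, Mx2, Mpo and Elane. Of 13 NK cell markers 4 were called lower, Klrd1, Klri2, Klrk1 and Tbx21, at -5.44, -4.57, -2.82 and -1.82. The other 9 were not called, and the median difference of the 13 was -0.01. Their summed intensity was 634 and 669 on the neutrophil arrays, 2939 to 3087 on the dendritic cell arrays and 56282 to 62727 on the baseline NK cell arrays. Of 15 markers of red pulp macrophages 8 were called lower, with C1qb at 7.62 and 6.89 on the neutrophil arrays, against 10.57, 9.91 and 10.17 on the dendritic cell arrays, and their sum was 6247 and 5991 on the neutrophil arrays, against 10505, 7016 and 8040 on the dendritic cell arrays. The exception was Slc40a1, the iron exporter ferroportin, at 11.57 and 11.53 on the neutrophil arrays, against 9.61, 8.66 and 8.58 on the dendritic cell arrays (difference 2.60, SE 0.38). Of 9 monocyte markers 4 were called lower, of 9 plasma cell markers 2 (Irf4 and Slamf7, both also dendritic cell genes), and of 11 erythroid and platelet markers 1 (Car2). The 15 neutrophil markers summed to 101794 and 114235 on the neutrophil arrays, against 3482, 3289 and 2117 on the dendritic cell arrays. On dendritic cell array 3, 9 of these 15 were below both other dendritic cell arrays and 3 above both, against 42.8% and 33.8% of all genes.

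Genes of growth and protein synthesis were lower in neutrophils. Of 30 cell cycle and DNA replication genes, 20 were called lower and none higher (median -1.21). Mcm6, a subunit of the replicative helicase, had 6.44 and 6.34 on the neutrophil arrays, against 8.88, 9.10 and 8.77 on the dendritic cell arrays, Rrm1 differed by -2.58 and Mki67 by -1.58 (SE 0.33). Of 26 ribosomal protein genes, 18 were called lower and none higher (median -1.33), with Rps20 at 10.50 and 9.65 on the neutrophil arrays, against 12.06, 12.18 and 12.17 on the dendritic cell arrays and Rpl10a at -2.02. Of 20 translation and ribosome biogenesis factors, 12 were called lower and none higher, led by the nucleolar protein Npm1 at -2.56 and Eif3e at -2.48. Myc, a driver of ribosome synthesis, had 7.2 and 6.09 on the neutrophil arrays, against 8.83, 8.63 and 8.45 on the dendritic cell arrays. Of 11 heat shock chaperones 4 were called lower, and 2 without neutrophil array 2.

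Genes of energy metabolism differed by pathway where they were called. Over all genes 5.59% were called higher and 10.2% lower, with a median difference of 0.14. Of 35 genes of the mitochondrial respiratory chain, 7 were called lower, none higher and 28 not at all (median -0.53). Of 18 citric acid cycle genes 6 were lower, none higher and 12 not called (median -0.67). Among the 6, fumarase Fh1 had 6.51 and 6.77 on the neutrophil arrays, against 8.61, 8.55 and 9.34 on the dendritic cell arrays. Of 17 glycolysis genes, 7 were called higher and 1 lower (median 0.87). Hk3, a hexokinase of myeloid cells, had 10.21 and 10.21 on the neutrophil arrays, against 7.25, 7.54 and 7.51 on the dendritic cell arrays, and the lactate exporter Slc16a3 differed by 2.92, Pfkfb4 by 2.88 and the glucose transporter Slc2a3 by 2.28. Pfkfb3 was lower, at -1.33. Of 15 genes of glycogen and pentose phosphate metabolism, 6 were called higher and none lower, with glycogen phosphorylase Pygl at 11.36 and 11.39 on the neutrophil arrays, against 7.79, 7.68 and 7.44 on the dendritic cell arrays and Pgd, which yields NADPH, at 2.76. Of 17 sterol synthesis genes, 6 were called lower, among them Idi1 at -1.53 and the regulator Srebf2 at -1.44, and Sc5d was higher at 1.87.

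Interferon-stimulated genes differed already without interferon. Of 33 measured, 14 were called higher in neutrophils and 3 lower (median 0.37). Slfn4 had 12.28 and 12.31 on the neutrophil arrays, against 7.25, 7.01 and 7.02 on the dendritic cell arrays, a difference of 5.2 (SE 0.19), and Slfn1, a related schlafen gene, had 12.32 and 12.33 on the neutrophil arrays, against 6.75, 6.82 and 7.42 on the dendritic cell arrays. Rsad2, which encodes the antiviral protein viperin, differed by 2.82, and the oligoadenylate synthetase family genes Oas3 and Oasl2 by 3.06 and 2.68. Mx1, an antiviral GTPase gene, was lower at 5.26 and 5.04 on the neutrophil arrays, against 7.86, 7.56 and 8.46 on the dendritic cell arrays, a difference of -2.81, as were Mx2 and Stat2 at -1.06 and -1.08. Without neutrophil array 2 the number called higher was 9, and without array 1 it was 11. Stat2 was not called without neutrophil array 1 (-0.82), nor Mx2 without dendritic cell array 3 (-0.92). Schlafen, Oas and Ifit genes have close relatives, as do the H2 and Ly6 genes named above, and cross-hybridisation of their probes was not tested.

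Immediate early genes, which respond within minutes to stimulation, were called higher for 12 of 25 and lower for 4 (median 0.81). Fos had 11.08 and 11.36 on the neutrophil arrays, against 8.26, 8.34 and 9.31 on the dendritic cell arrays, a difference of 2.58 (SE 0.37), Dusp1 differed by 1.85 and Junb by 1.82. Egr1, Jun, Nr4a3 and Myc were lower, at -1.03, -1.23, -1.92 and -1.99, and 2 of the 4 were called without neutrophil array 1. Egr1 was also not called without dendritic cell array 2 (-0.98), and of the 5 omissions of 1 array Jun kept its call only in that one. On the interferon arrays, whose preparation is labelled as a digestion for both types, 2 were called higher and 7 lower. On dendritic cell array 3, with the same wording, 15 of the 25 genes were above both other dendritic cell arrays and 8 below both (median 0.11), against 33.8% and 42.8% of all genes. Among the 15, Atf3 had 8.11, 7.81 and 9.32 on arrays 1, 2 and 3. The part of the preparation in these differences was not tested.

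Set against the other 7 cell types as well, 436 genes (2.21%) were called higher in neutrophils than in each of 8 types and 633 (3.2%) lower. The 436 were 39.5% of the genes called higher than in dendritic cells. Dendritic cells were called above each of 8 types for 244 genes (1.24%), which were 12.1% of those called lower in neutrophils, and below each for 39 (0.197%). For Ly6g, Mmp8, Ltf, Retnlg, Chil1, Il1f9, S100a8, Mirt2, Arg2 and S100a9 the type nearest to neutrophils was the dendritic cell, so that the difference from every other type was at least as large. Clec4e was not called above every type, since macrophages lay 0.12 below neutrophils. For dendritic cells the widest gaps to the nearest type were those of Adam23 at 5.49, Havcr2 at 5.24, Flt3 at 4.92, Bex6 at 4.83, and Kynu and Kmo, 2 enzymes of tryptophan breakdown, at 4.62 and 4.55. The gaps of Ifi205, Xcr1, Clec4a4 and Apol7c lay between 4.34 and 4.56. Klrd1 was higher in NK cells than in dendritic cells, by 1.44. The labels of CD8+ T cell and macrophage baseline arrays name more than one tissue. Without these types the counts above and below were 368 and 82 for dendritic cells and 601 and 770 for neutrophils.

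On the interferon arrays, which the baseline comparison did not use, a separate limma fit gave a second set of calls. There 952 genes (4.82%) were called higher in neutrophils and 2322 (11.8%) lower, with a median difference over all genes of 0.25. The 2 interferon neutrophil arrays differed from each other by at least 1 for 498 genes (2.52%), against 71 for the baseline neutrophil arrays, and the interferon dendritic cell arrays for 29 (0.147%). Of the genes called higher at baseline, 722 were called higher again (65.4% of the baseline and 75.8% of the interferon calls), and of those called lower 1536 were called lower again (76.3% and 66.1%). All 15 neutrophil markers and 14 dendritic cell markers kept their call. The median difference of secondary granule genes was 3.82 and that of class II genes -4.52. H2-Aa had 6.20 and 6.04 on the neutrophil arrays, against 13.26 and 13.27 on the dendritic cell arrays, a difference of -7.15, beside -3.02 at baseline. Of 18 B cell markers, none was called higher and 6 lower, with Cd79a at 5.91 and 6.22 on the neutrophil arrays, against 5.88 and 5.83 on the dendritic cell arrays.

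**Figure D5:**
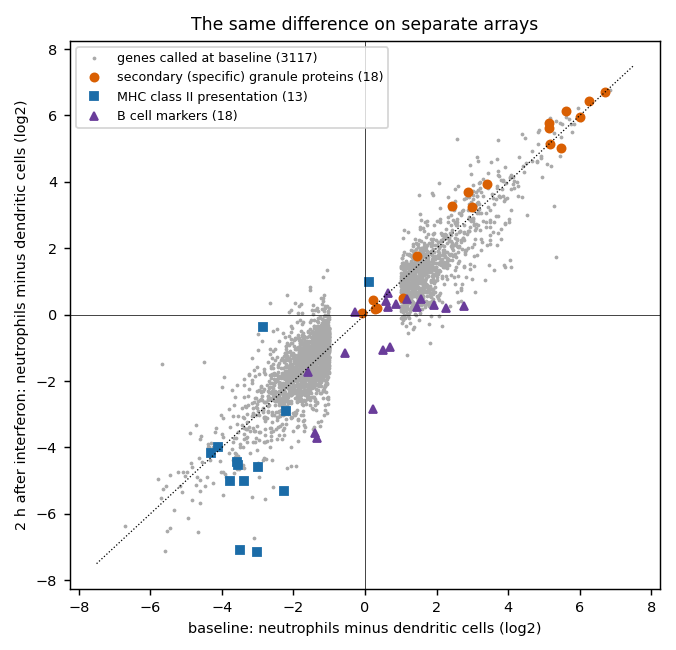
Difference between neutrophils and dendritic cells (neutrophils minus dendritic cells, log2) on the interferon arrays (y axis, n = 2 each) against the baseline arrays (x axis, n = 2 and 3), for the 3117 genes called at baseline (grey). Members of 3 lists are drawn over them whether called or not: secondary granule genes lie near the dotted line of equality, class II genes mostly lie below it, and the B cell markers that were higher at baseline lie near 0 on the y axis.

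Opposite calls after interferon and at baseline were made for 3 genes. Cd274, the gene of PD-L1, a ligand that restrains T cells, had 12.14 and 12.66 on the neutrophil arrays, against 11.08 and 11.44 on the dendritic cell arrays after interferon, a difference of 1.14. At baseline it had 8.81 and 9.37 on the neutrophil arrays, against 10.38, 10.06 and 10.35 on the dendritic cell arrays, a difference of -1.18. Lrrk2, a kinase gene, differed by 1.36 after interferon and -1.05 at baseline. Zfp36l2, which encodes an RNA-binding protein that shortens mRNA life, differed by -1.22 after interferon and 1.18 at baseline. With quantile normalisation the baseline difference of Zfp36l2 was 0.95 and was not called. Without neutrophil array 1 the baseline differences of Cd274 (-0.89) and Lrrk2 (-0.85) were not called, nor was that of Lrrk2 without dendritic cell array 1 (-1.0) or with the replicate number as a block (-0.98). The change of the difference (interferon minus baseline) was called for each of the 3 and for 409 genes (2.07%) in all. Interferon and baseline arrays of neutrophils also differ in the wording of their preparation, so that interferon and preparation cannot be told apart in these changes.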

How the data were processed

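RNA of sorted mouse cells was measured on Affymetrix whole-transcript arrays for mouse. The deposited values are linear intensity values, 1 per probe set and array, made by the authors with Affymetrix Power Tools and RMA, per the submitters' processing notes, with no versions given. Array medians lay between 105 and 125, so differences are relative to a common scale. Precision is limited by how few arrays each group has.

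Values were log2-transformed. Of 24922 probe sets, 21425 had 1 gene symbol in the platform annotation, 1399 had several and 2098 had none, and the brightest probe set stood for each of 921 symbols with more than 1, which left 19752 genes. Groups follow the array titles. The test was limma's lmFit and eBayes (limma 3.58.1, R 4.3.3) on 26 baseline arrays in 9 cell types with 17 residual degrees of freedom, or on 17 interferon arrays with 8, and was tested on simulated data. Named genes were the 15 largest differences in each direction with arrays that do not overlap and that also passed on replicates 1 and 2, the 10 genes farthest above every other type for each cell type, and members of 48 lists (796 of 880 genes measured). Gene models, small RNAs and receptor segments were counted and not named. The comparison and the lists were chosen with earlier results of these data known, and so support nothing by themselves. Whether replicate numbers pair the arrays is not known, and the main fit took no pairing. Alternatives covered normalisation, dim genes, probe set choice, the variance model, the arrays in the fit, the size threshold and leaving out each array. Sequences are from RefSeq promoter tables (GRCm38.p6).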

Additional observations from a re-analysis of the deposited data

Results flagged for a closer look

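The change of the difference between neutrophils and dendritic cells (interferon minus baseline) was tested with limma over all 43 arrays. It was called for 31 of the 221 genes named here, against 409 of 19752 genes (2.07%). Many of the named genes were chosen for a large baseline difference, so nothing is read from that share. Ifi205 changed by 4.19 (SE 0.61, adjusted p = 5.12e-05), its difference being -1.49 after interferon and -5.68 at baseline. Slfn1 changed by -3.60 (SE 0.45, adjusted p = 5.43e-06), its difference being 1.73 after interferon and 5.33 at baseline. H2-Aa changed by -4.13 (SE 1.10, adjusted p = 0.033), its difference being -7.15 after interferon and -3.02 at baseline. Of the genes called in opposite directions, Cd274 (2.31), Lrrk2 (2.41) and Zfp36l2 (-2.40) carried such a change. Among interferon-stimulated genes the change was negative for Mx1 (-2.73), Mx2 (-1.45), Oas3 (-2.37), Oasl2 (-1.88) and Rsad2 (-1.69). Among B cell markers it was negative for Fcmr (-2.49), Ms4a1 (-3.06) and Cd72 (-2.37). In antigen presentation and costimulation the change was positive for Ctss (2.50) and H2-M3 (1.21) and negative for Cd40 (-2.43). It was positive for Clec4a4 (3.06), Cd5 (1.53), Il18 (2.39) and Il1r2 (1.55). It was negative for Cebpb (-1.55), Csf1 (-1.23), Fos (-2.20), Jaml (-1.49), Klrk1 (-1.5), Nr4a3 (-2.65), Pgd (-1.32), Ptgs2 (-2.25), Rpl10a (-1.49) and Slc16a3 (-1.39). Interferon and the wording of the preparation cannot be told apart in these changes for neutrophils.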

How the results depend on the processing

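No gene called in the main baseline fit was called in the opposite direction under any of the baseline alternatives. Testing against a 2-fold change left 523 genes called higher and 728 lower in neutrophils, and dropping the minimum size gave 2263 and 3439. Leaving out each array in turn gave 1031 to 1156 higher and 1929 to 2017 lower at baseline, 962 to 1202 higher and 2187 to 2584 lower after interferon, 400 to 477 genes above and 566 to 629 below every other type for neutrophils, and 242 to 256 above and 40 to 41 below for dendritic cells; the interferon and every-type omissions were chosen after seeing the data. With macrophages and CD8+ T cells left out, dendritic cells were above every other type for 368 genes and below for 82, and neutrophils for 601 and 770. Whether replicate numbers pair the arrays is not known, and the correlation of deviations (0.0436) cannot show it with 2 replicates per type. With the replicate number as a block the baseline counts were 1130 and 1938, of which 1090 and 1917 were also called without it. Quantile normalisation gave 1163 and 1860 and moved the median difference over all genes after interferon to 0.12, against 0.25. Under it 8 named genes were not called, Cd5, Egr1, Naip5, Pycard, S100a10, Spib, Stat2 and Zfp36l2. Genes that had not passed the test turned sign: Cd80 was 0.0046 with the replicate block and 0.096 with the mean of probe sets, Marchf1 was -0.037 on replicates 1 and 2 and without dendritic cell array 3, and Ms4a1 was -0.24 without neutrophil array 1. Over the omissions of 1 array Marchf1 ranged from -0.037 to 0.303 and Ms4a1 from -0.239 to 0.681. The cause of these shifts was not tested. With 2 and 3 arrays per group, differences near the 2-fold threshold depend on single arrays. So did the calls of some larger ones, among them H2-Aa (-3.02) and Cd74 (-2.26).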
